A study of Rattus norvegicus with 6 samples.

Results

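The interleukin-1 (IL-1) family and the NLRP3 inflammasome were examined through 10 genes picked by name, all of which were found among the 23139 genes listed in the count tables. They are the cytokine genes Il1a, Il1b and Il18, the receptor antagonist gene Il1rn, the decoy receptor gene Il1r2, and 5 genes of the inflammasome, namely Nlrp3, Pycard, Casp1, Casp4 and Gsdmd. Primary microglia from cortices of Wistar rats at postnatal day 1 were grown in mixed flasks for 10 days, shaken off and sorted with CD11b/c beads. A day after isolation they received lipopolysaccharide (LPS, a bacterial membrane component that activates microglia) at 100 ng/mL, together with the solvent DMSO (LPS + DMSO, n = 3 libraries) or with 50 µM siponimod, a modulator of sphingosine-1-phosphate receptors (LPS + Siponimod, n = 3 libraries). Bulk mRNA was sequenced. Every library had LPS, so that each value below compares siponimod with solvent in stimulated cells, and cells without LPS were not analysed here. Cultures were fixed, or lysed for RNA and PCR, after 1 or 3 days of stimulation, and the time used for sequencing is not stated separately in the sources used here.

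IL-1α and IL-1β are agonists of the IL-1 receptor, IL-1Ra (the product of Il1rn) occupies that receptor without signalling, and the decoy receptor binds IL-1 without passing a signal on. IL-1β and IL-18 are made as inactive precursors. The sensor NLRP3 and the adaptor ASC (the product of Pycard) assemble into an inflammasome that activates caspase-1, which cleaves both precursors and opens the pore protein gasdermin D, the product of Gsdmd. Caspase-4 of rats, the counterpart of mouse caspase-11, binds LPS in the cytosol and also cleaves gasdermin D. In microglia and macrophages, LPS is the classical first signal that induces transcription of Il1b and Nlrp3, while assembly needs a second stimulus that mRNA levels do not report.

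The LPS + DMSO libraries held 39484979, 38301365 and 38080379 counts in the order of their replicate numbers. With siponimod the totals were 46643859, 43336006 and 38857441. Levels are given as CPM, that is counts scaled to a common library size after TMM normalization, and are compared between conditions for 1 gene at a time, since they are not corrected for transcript length. Replicates were biological ones according to the study's methods, and same-numbered libraries deviated together from their group means. The fold changes and adjusted p-values are from a fit of condition alone, without pairs, unless the replicate block is named. Differences within pairs set same-numbered libraries against each other. A gene with 3 counts or fewer in every library was regarded as being at the floor, which covers counting error only. After removal of genes with low counts 11977 genes were tested, 9 of the 10 among them.

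The library LPS + DMSO replicate 3 stood apart. Over all genes tested, its log2 CPM correlated with those of LPS + DMSO replicates 1 and 2 at 0.935 and 0.945, whereas these correlated with each other at 0.983, and 2450 and 2034 genes lay more than 1 log2 unit apart, against 885. Il1a, Il1b, Il18 and Nlrp3 had their highest LPS + DMSO level in it. Il1rn, Pycard, Casp1, Casp4 and Gsdmd had their lowest there (Casp1 by a small margin). Results of the members that rest on this library are given with and without it. The same library held transcripts of other brain cells. Olig1, a transcription factor gene of the oligodendrocyte lineage, had 515 counts in it against 1 and 5 in the other LPS + DMSO libraries, and the libraries with siponimod held 2, 3 and 17. Counts of the dendritic protein gene Map2 were 162 in it, 0 and 3 in the other LPS + DMSO libraries, and 1, 1 and 115 with siponimod.

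The members parted into a steep rise of the antagonist, a fall of 3 inflammasome parts, and no call among the 3 cytokines, of which 1 (Il18) had an unadjusted p below 0.05 and was called by DESeq2 and by the likelihood ratio test (edgeR). Il1rn rose 19.4-fold with siponimod, while Nlrp3, Pycard and Casp1 fell 4.24-fold, 6.30-fold and 1.87-fold. Of the 9 members tested, 1 was called higher and 3 lower (edgeR quasi-likelihood test with Benjamini-Hochberg adjustment, threshold 0.05, minimum fold change 1.5), where 13.6% of all genes tested were called higher and 11.7% lower. With the replicate number as a block Gsdmd joined the lower ones, which made 1 higher and 4 lower, against 17.7% and 16.4% of all genes. Without LPS + DMSO replicate 3, Il1a also was called higher and Gsdmd lower, which made 2 higher and 4 lower, against 15.9% and 14.5%. The 6 libraries did not overlap between conditions for 1 higher member, Il1rn, and 4 lower members, Il18, Nlrp3, Pycard and Casp1, whereas 25.3% of all genes were higher and 24% lower without overlap.

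**Figure D1:**
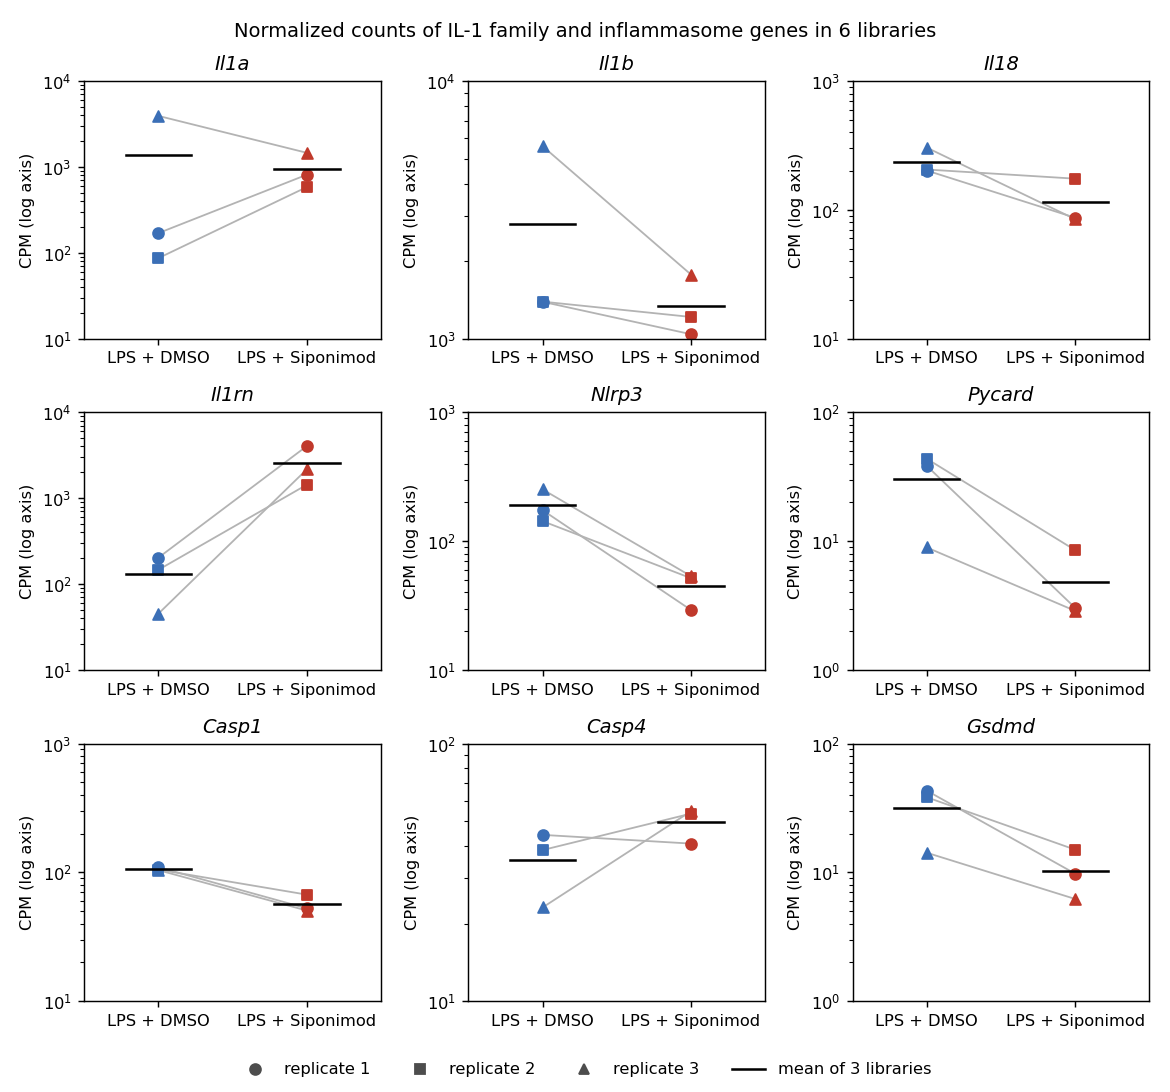
Normalized counts (CPM, log axis) of the 9 members tested, by condition; each symbol is a library, grey lines join same-numbered libraries and black bars are means of 3 libraries. Il1rn lies higher in all 3 LPS + Siponimod libraries, Nlrp3, Pycard and Casp1 lie lower in all 3, and LPS + DMSO replicate 3 holds the highest levels of Il1a and Il1b.

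The sequences 5′ of the transcription start of the antagonist gene, both IL-1 agonist genes and the sensor gene are shown because these 4 genes took different courses in the same libraries. They are RefSeq windows of the 250 bases before each gene start on assembly GRCr8, a later one than that used for mapping, and 7 of the 10 members matched an entry by symbol. Capitals mark matches, on either strand and allowing overlap, to 5 letter patterns. The κB pattern, bound by NF-κB, was GGG and CC with 5 bases of any kind between them. The C/EBP pattern was TTNNGNAA and that of the composite of ATF4 and C/EBP was TGATGNAA. The core of interferon-stimulated response elements was a pair of GAAA with 2 bases of any kind between them, and TATAAA was taken for the core promoter box of that name. The windows were chr3:27520072-27520321 (plus strand) for Il1rn, chr3:136990018-136990267 (minus strand) for Il1a, chr3:137036582-137036831 (minus strand) for Il1b and chr10:44827848-44828097 (plus strand) for Nlrp3.
Il1rn: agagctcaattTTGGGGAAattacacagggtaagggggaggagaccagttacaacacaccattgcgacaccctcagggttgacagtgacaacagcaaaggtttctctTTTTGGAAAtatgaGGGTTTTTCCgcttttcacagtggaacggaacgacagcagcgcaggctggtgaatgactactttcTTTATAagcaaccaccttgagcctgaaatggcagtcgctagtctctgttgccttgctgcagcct
Il1a: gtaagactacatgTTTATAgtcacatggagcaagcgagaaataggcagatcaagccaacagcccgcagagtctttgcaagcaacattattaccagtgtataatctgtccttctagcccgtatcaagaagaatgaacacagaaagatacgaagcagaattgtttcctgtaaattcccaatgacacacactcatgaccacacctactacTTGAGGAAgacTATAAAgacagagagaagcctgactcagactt
Il1b: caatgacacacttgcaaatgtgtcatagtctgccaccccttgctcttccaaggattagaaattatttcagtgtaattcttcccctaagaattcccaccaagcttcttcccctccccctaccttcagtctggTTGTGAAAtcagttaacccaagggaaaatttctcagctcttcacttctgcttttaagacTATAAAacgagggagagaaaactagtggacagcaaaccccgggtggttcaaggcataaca
Nlrp3: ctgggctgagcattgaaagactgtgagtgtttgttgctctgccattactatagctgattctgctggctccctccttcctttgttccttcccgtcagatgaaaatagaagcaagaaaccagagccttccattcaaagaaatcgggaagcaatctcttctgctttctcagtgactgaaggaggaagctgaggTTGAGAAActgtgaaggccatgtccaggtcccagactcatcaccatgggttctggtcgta

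In the Il1rn window, the match to the κB pattern read GGGTTTTTCC. Among the 7 members matched, the κB pattern occurred in 3 (Il1rn, Il18 and Casp1), and it occurs in 43.5% of 27457 such windows in the table. The C/EBP pattern occurred in 5 of 7 (36.8% of all windows), TATAAA on either strand in 3 of 7 (13.1%), the interferon core in 1, Casp1 (3.29%), and the ATF4 composite in 0 of 7 (3.27%). The Il1rn window held TATAAA only as its reverse complement, TTTATA, with its first base at -64 from the gene start. Those of Il1a and Il1b held it in the direction of the gene, at -32 and -60. A match describes letters in a short window and is not a binding site shown by these data.

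Il1rn had 7529, 5652 and 1683 counts under LPS + DMSO, given as everywhere in the order of the replicate numbers, and 188178, 64128 and 88992 counts under LPS + Siponimod. In CPM these were 203, 147 and 45.3 against 4048, 1436 and 2169. The lowest library with siponimod thus exceeded the highest one without it, and within pairs the difference in log2 CPM was 4.32, 3.29 and 5.58. Among all 11977 genes tested, the log2 fold change (FC) of Il1rn, 4.28, ranked 121 from the top (standard error 0.70, edgeR adjusted p = 0.0112). Without LPS + DMSO replicate 3, its lowest library, the log2 FC was 3.87 (edgeR adjusted p = 0.0135). Without LPS + DMSO replicate 2 the call was lost (log2 FC 4.36, edgeR adjusted p = 0.0598).

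Il1b, the main secreted agonist, differed little between the conditions in 2 of the 3 pairs. Its counts were 51576, 53699 and 207703 with LPS + DMSO and 48401, 54252 and 72773 with LPS + Siponimod. In CPM these corresponded to 1391, 1393 and 5588 against 1041, 1215 and 1774. The groups overlapped, and the highest library was LPS + DMSO replicate 3, which was 4.01-fold over the mean of the other LPS + DMSO libraries. Il1b was not called (log2 FC -1.05, standard error 0.61, edgeR adjusted p = 0.229), nor without LPS + DMSO replicate 3 (log2 FC -0.05, standard error 0.28, edgeR adjusted p = 0.91). The value was negative in all 3 pairs, with differences of -0.42, -0.20 and -1.66 in log2 CPM.

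For Il1a, which encodes the agonist that is active already as a precursor and is the direct neighbour of Il1b in the RefSeq annotation, the direction depended on 1 library. Counts were 6292, 3346 and 145950 with LPS + DMSO and 37777, 26062 and 59894 with LPS + Siponimod. LPS + DMSO replicates 1 and 2 (170 and 86.8 CPM) lay below all LPS + Siponimod libraries (813, 584 and 1460 CPM), and LPS + DMSO replicate 3 (3927 CPM) lay above them. That library was 30.6-fold over the mean of the other LPS + DMSO libraries. Over all 6 libraries the log2 FC was -0.55 (standard error 1.35, edgeR adjusted p = 0.78), and with the replicate number as a block it was 1.36 (edgeR adjusted p = 0.317). Without LPS + DMSO replicate 3, Il1a was higher with siponimod by a log2 FC of 2.90 (standard error 0.55, edgeR adjusted p = 0.0193). That fit kept LPS + Siponimod replicate 3, the highest of its group. Without both libraries numbered 3, a fit added after the data were seen, the log2 FC was 2.45 (standard error 0.41, edgeR adjusted p = 0.0359). Whether the transcripts of other brain cells in LPS + DMSO replicate 3 have a part in its IL-1 levels was not tested.

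Il18 encodes the third cytokine of the group, which induces interferon-γ in lymphocytes. Its levels were 202, 206 and 304 CPM with LPS + DMSO and 86.9, 175 and 84.7 CPM with LPS + Siponimod. No LPS + Siponimod library reached the lowest LPS + DMSO library, though LPS + Siponimod replicate 2 came near to it. The log2 FC of -1.04 missed the threshold (standard error 0.34, edgeR adjusted p = 0.0647, and 0.0529 with the replicate block). Without LPS + Siponimod replicate 2 it passed (log2 FC -1.47, edgeR adjusted p = 0.0157). Of the 6 fits with a single library left out, Il18 was called in that 1 alone, and its adjusted p (edgeR) reached 0.21 in the others.

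Il1r2, the gene of the decoy receptor, was at the floor in all 6 libraries, with 1, 2 and 0 counts with LPS + DMSO and 1, 0 and 1 counts with LPS + Siponimod. It was removed by the filter, and no fold change is given. At this depth no difference between the conditions was detectable for it.

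Since both genes are counted in the same library, the ratio of Il1rn to Il1b counts needs no scaling between libraries, and only its change is read. It was 0.146, 0.105 and 0.00810 under LPS + DMSO, and 3.89, 1.18 and 1.22 under LPS + Siponimod. The ratio was higher by 26.6-fold, 11.2-fold and 151-fold within the 3 pairs, and the mean log2 ratio went from -4.32 ± 2.28 to 0.83 ± 0.98 (SD, n = 3 each, two-sided exact permutation p = 0.1, the smallest that 3 libraries against 3 can give). The ratio of Il1rn to Il1a counts was 1.20, 1.69 and 0.0115 against 4.98, 2.46 and 1.49. It was higher within each pair, by 4.16-fold, 1.46-fold and 129-fold, but the conditions overlapped (two-sided exact permutation p = 0.2, n = 3 each). When LPS + DMSO replicate 3 was left out, the difference of the mean log2 ratio dropped from 3.20 to 0.89 for Il1a and from 5.15 to 3.84 for Il1b.

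**Figure D2:**
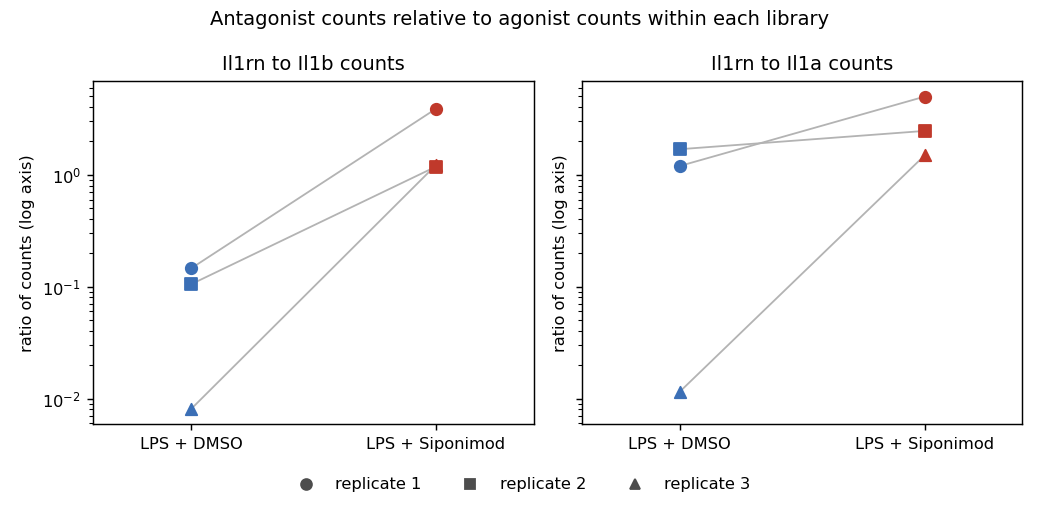
Ratio of Il1rn counts to Il1b counts (left) and to Il1a counts (right) in each library, on a log axis; symbols stand for replicates 1, 2 and 3 and grey lines join same-numbered libraries. The ratio to Il1b lies between 0.00810 and 0.146 with LPS + DMSO and between 1.18 and 3.89 with LPS + Siponimod, while the ratio to Il1a overlaps.

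Nlrp3, the sensor of the inflammasome, had 6449, 5509 and 9365 counts with LPS + DMSO against 1357, 2302 and 2193 with LPS + Siponimod. These were 174, 143 and 252 CPM against 29.2, 51.5 and 53.5 CPM. All LPS + Siponimod libraries lay far below all LPS + DMSO libraries, and the differences within pairs were -2.57, -1.47 and -2.24 in log2 CPM. The log2 FC was -2.08 (standard error 0.32, edgeR adjusted p = 0.00984). Among the members, Nlrp3 was the one that was called in each of the 6 fits with a single library left out, where its adjusted p (edgeR) reached 0.0419 at most.

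Pycard, the gene of the adaptor ASC, had the largest negative log2 FC of the 10 members, and ranked 159 from the lowest among all 11977 genes tested. Counts were 1423, 1680 and 332 with LPS + DMSO and 141, 380 and 118 with LPS + Siponimod. In CPM, 38.4, 43.6 and 8.93 stood against 3.03, 8.51 and 2.88, so that LPS + DMSO replicate 3 came close to LPS + Siponimod replicate 2. Every pair went down, with differences of -3.64, -2.35 and -1.62 in log2 CPM. The log2 FC was -2.66 (standard error 0.72, edgeR adjusted p = 0.0389). The adjusted p (edgeR) was 0.102 without LPS + DMSO replicate 1, 0.129 without LPS + DMSO replicate 2, 0.149 without LPS + Siponimod replicate 1 and 0.12 without LPS + Siponimod replicate 3, whereas it was 0.0157 without LPS + DMSO replicate 3, the low one. The size moved most without LPS + Siponimod replicate 2, the highest of its group (log2 FC -3.37, edgeR adjusted p = 0.0356). With limma-voom Pycard was not called either (adjusted p = 0.0646).

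Casp1, the gene of the protease that matures IL-1β and IL-18, showed the smallest spread of all members among the LPS + DMSO libraries. Its levels were 110, 105 and 104 CPM with LPS + DMSO and 52.6, 67.2 and 50.5 CPM with LPS + Siponimod. The LPS + DMSO libraries thus lay close together and no LPS + Siponimod library came near them. The change was of moderate size (log2 FC -0.90, standard error 0.14, edgeR adjusted p = 0.0105). The call was lost without LPS + DMSO replicate 2 (edgeR adjusted p = 0.052) and without LPS + Siponimod replicate 1 (edgeR adjusted p = 0.0576).

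Casp4, which is the direct neighbour of Casp1 in the RefSeq annotation, was the inflammasome member with a positive value. Its levels were 44.2, 38.6 and 23.1 CPM with LPS + DMSO against 40.9, 53.5 and 54.6 CPM with LPS + Siponimod. The conditions overlapped, and the pairs differed by -0.11, 0.47 and 1.24 in log2 CPM. No change was called (log2 FC 0.49, standard error 0.26, edgeR adjusted p = 0.194). As neighbouring genes of related sequence, Casp1 and Casp4 can share reads, and how such reads were divided is not given in the sources used here.

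Gsdmd, the gene of the pore protein, had 43.1, 38.3 and 14.2 CPM with LPS + DMSO and 9.77, 15.0 and 6.22 CPM with LPS + Siponimod. The difference was negative in each pair (-2.14, -1.35 and -1.19 in log2 CPM), while LPS + DMSO replicate 3 fell among the LPS + Siponimod libraries. The log2 FC of -1.62 missed the threshold over all libraries (standard error 0.50, edgeR adjusted p = 0.0538). With the replicate number as a block it passed (log2 FC -1.56, standard error 0.23, edgeR adjusted p = 0.00969), as it did without LPS + DMSO replicate 3 (log2 FC -1.98, edgeR adjusted p = 0.0174). Of the 6 fits with a single library left out, Gsdmd was called in that 1 alone, and its adjusted p (edgeR) reached 0.178 in the others. With limma-voom it was not called either (adjusted p = 0.0701).

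Over the 5 inflammasome parts the log2 FC had its median at -1.62, with -2.14, -1.35 and -1.19 as the medians within pairs 1, 2 and 3. The 4 tested genes of cytokines and antagonist had a median of -0.80, and their medians within pairs were 0.92, 1.28 and -1.54, so that this side had no common direction. Leaving out LPS + DMSO replicate 3 gave -1.82 for the inflammasome parts and 1.43 for cytokines and antagonist. The median over all genes tested was -0.02. These medians describe genes that were picked by name with results known, and no test was made on them.

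**Figure D3:**
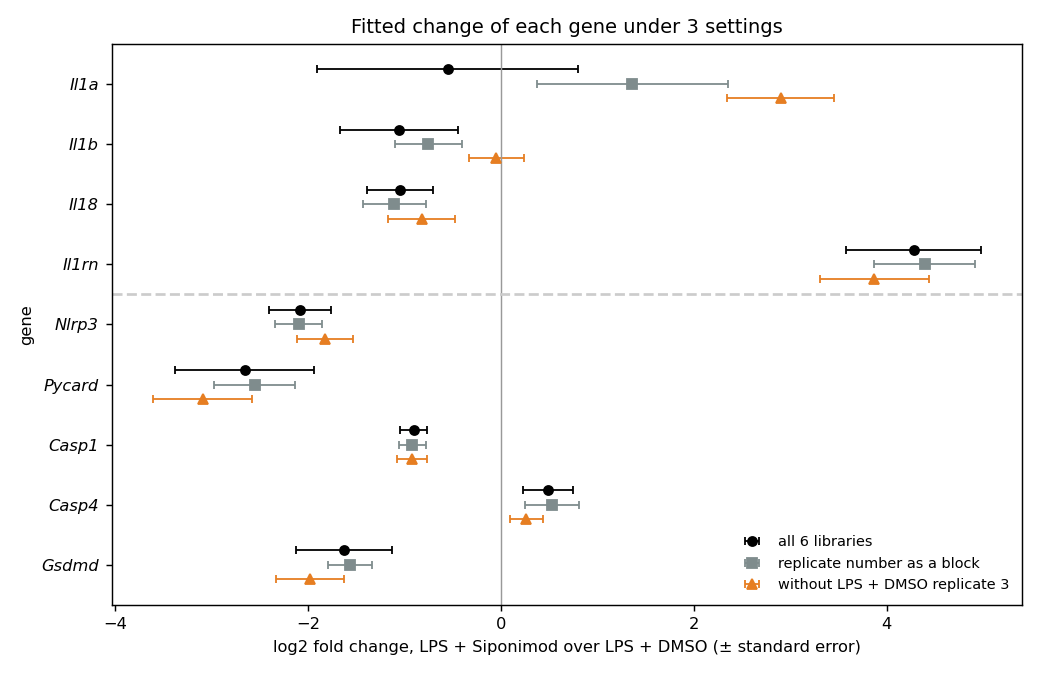
Log2 fold change of each member, LPS + Siponimod over LPS + DMSO, with its standard error, from all 6 libraries, with the replicate number as a block, and without LPS + DMSO replicate 3; cytokines and antagonist stand above the dashed line, inflammasome parts below. Il1a moves from -0.55 to 2.90 when that library is left out, while Il1rn, Nlrp3, Pycard, Casp1 and Gsdmd keep their side of 0 under these settings.

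The activators and further parts of the inflammasome went both ways. In a list of 13 genes for activation and release, 2 were called higher and 3 lower, with a median log2 FC of -0.55. In this and the following lists, all with few genes, the counts stand beside the 13.6% of all genes tested that were called higher and the 11.7% called lower (17.7% and 16.4% with the replicate block), and nothing particular to a list is read from them. Nek7, the kinase that NLRP3 needs for assembly, was at 87.8 ± 15.4 CPM under LPS + DMSO and rose to 234 ± 39.5 CPM (here and below mean ± SD, n = 3 libraries per condition, log2 FC 1.41, edgeR adjusted p = 0.00838). Its counts were 3736, 3536 and 2633 against 8750, 11262 and 10681, with no overlap. Nek7 thus moved opposite to Nlrp3 in each of the 3 pairs. Brcc3, whose product removes ubiquitin from NLRP3, also rose (log2 FC 0.78, standard error 0.16, edgeR adjusted p = 0.0183).

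The lower ones were Cgas, Gbp2 and Txnip. Cgas encodes a sensor of cytosolic DNA, with 23.1 ± 4.55 CPM under LPS + DMSO and 7.49 ± 1.20 CPM under LPS + Siponimod (log2 FC -1.62, edgeR adjusted p = 0.00733). Gbp2, an interferon-induced guanylate-binding protein gene that takes part in caspase-11 activation, was at 539 ± 63.6 CPM and fell to 195 ± 67.0 CPM (log2 FC -1.46, edgeR adjusted p = 0.0142). Txnip, which encodes a thioredoxin-binding protein reported to bind NLRP3, fell less (log2 FC -0.78, standard error 0.22, edgeR adjusted p = 0.0451, and 0.0678 when genes with low counts were kept). Panx1, a channel gene, was not called (log2 FC -0.55, edgeR adjusted p = 0.0904). P2rx7, the ATP-gated channel gene upstream of NLRP3, had 363, 284 and 76 counts against 1214, 238 and 201, with wide overlap (log2 FC 0.92, standard error 0.84, edgeR adjusted p = 0.433). It was high in LPS + Siponimod replicate 1, and without that library its log2 FC was -0.33. With the replicate block 3 genes of this list were called higher and 4 lower, where 17.7% and 16.4% of all genes were.

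Among 10 tested genes of other inflammasome sensors and caspases, 0 were called higher and 2 lower (13.6% and 11.7% of all genes), with a median log2 FC of -0.62. DESeq2 and the likelihood ratio test each called 4 of the 10. Over all genes they called 3898 and 3570, against 3036 in the main test. Nlrc4, the sensor of bacterial flagellin via NAIP proteins, had 104, 115 and 157 CPM with LPS + DMSO and 47.6, 77.3 and 57.8 CPM with LPS + Siponimod (log2 FC -1.04, standard error 0.24, edgeR adjusted p = 0.0262). Nod1, a sensor of peptidoglycan fragments, was at 77.9 ± 22.4 CPM and fell to 32.3 ± 8.22 CPM (log2 FC -1.27, edgeR adjusted p = 0.0249). Both were lower in every LPS + Siponimod library than in any LPS + DMSO library. Aim2, the DNA sensor gene, was not called (log2 FC 0.10, standard error 0.33), nor was Nlrp1a (log2 FC -0.27, standard error 0.14).

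On the receiving side of IL-1, few genes were called. Il1r1, the signalling receptor of IL-1, had 4, 3 and 29 counts with LPS + DMSO and 7, 7 and 6 with LPS + Siponimod and was not tested, the highest count again being in LPS + DMSO replicate 3. Of 4 receptor genes tested, 0 were called by edgeR's quasi-likelihood test, DESeq2 or limma-voom, and 0 had an unadjusted p below 0.05 (median log2 FC 0.79). Il1rap, the accessory chain, had 785, 756 and 1463 counts against 1800, 1616 and 1585 (log2 FC 0.50, standard error 0.28, edgeR adjusted p = 0.211). Il1rap was called higher without LPS + DMSO replicate 3 (log2 FC 0.90, edgeR adjusted p = 0.0118).

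Of 12 genes of IL-1 receptor signalling, 1 was called higher and 0 lower (13.6% and 11.7% of all genes), with a median log2 FC of 0.03. It was Tab3, an adaptor of the kinase TAK1, which had 212, 187 and 232 counts against 550, 443 and 443 (log2 FC 0.95, standard error 0.17, edgeR adjusted p = 0.0142). Myd88, the adaptor that IL-1 receptors share with Toll-like receptors, had 163, 175 and 115 CPM against 96.7, 122 and 90.4 CPM and was not called (log2 FC -0.55, standard error 0.21, edgeR adjusted p = 0.0917). In the fit without LPS + DMSO replicate 3 Myd88 was called lower (log2 FC -0.71, edgeR adjusted p = 0.0269), and 2 more genes of this list were called higher, the kinase gene Irak2 (log2 FC 1.06, edgeR adjusted p = 0.0296) and the ubiquitin ligase gene Traf6 (log2 FC 0.84, edgeR adjusted p = 0.0388). Of 6 listed genes of other ligands and binding proteins of the family, 4 had at most 3 counts in any library and 2 were tested. Neither Il33 (log2 FC -1.96, standard error 1.14) nor Il18bp (log2 FC -0.66, standard error 0.45) was called by edgeR's quasi-likelihood test, DESeq2 or limma-voom, and 0 had an unadjusted p below 0.05. With the replicate block Il18bp was called lower (edgeR adjusted p = 0.0344).

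Transcription factors and inhibitors of LPS priming, a list of 13 genes, held 2 that were called higher and 1 that was called lower (13.6% and 11.7% of all genes), with a median log2 FC of -0.25. Cebpb, which encodes a C/EBP factor that binds the Il1b promoter, was at 91.1 ± 19.8 CPM and rose to 176 ± 41.4 CPM (log2 FC 0.95, edgeR adjusted p = 0.0321). Rela, an NF-κB subunit gene, had 2688, 2440 and 2562 counts against 5974, 4993 and 4810 (log2 FC 0.80, standard error 0.12, edgeR adjusted p = 0.00886). Nfkb2, another subunit gene, had a log2 FC of -0.66 (edgeR adjusted p = 0.0301). Nfkbiz, whose product assists NF-κB at a subset of its targets, was not called (log2 FC -0.73, edgeR adjusted p = 0.291), its counts being 15789, 15969 and 45134 against 13870, 24357 and 16284. Thus it had its highest count in LPS + DMSO replicate 3, as Il1a and Il1b did. Without that library the log2 FC of Nfkbiz was -0.02 (edgeR adjusted p = 0.959). In the replicate block fit this list held 3 higher and 3 lower genes, against 17.7% and 16.4% of all genes.

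Of the 11 genes called in these lists, Nek7 and Cgas were called in all 6 fits with a single library left out. The others lost the call in 1 to 5 of these fits, Txnip in 5 (up to an adjusted p of 0.137, edgeR) and Rela in 1 (0.0508 without LPS + DMSO replicate 2). Of the 11 calls, 9 were lost without LPS + DMSO replicate 2, 8 each without LPS + Siponimod replicates 1 and 3, 4 without LPS + DMSO replicate 1, 1 without LPS + Siponimod replicate 2 and 0 without LPS + DMSO replicate 3.

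**Figure D4:**
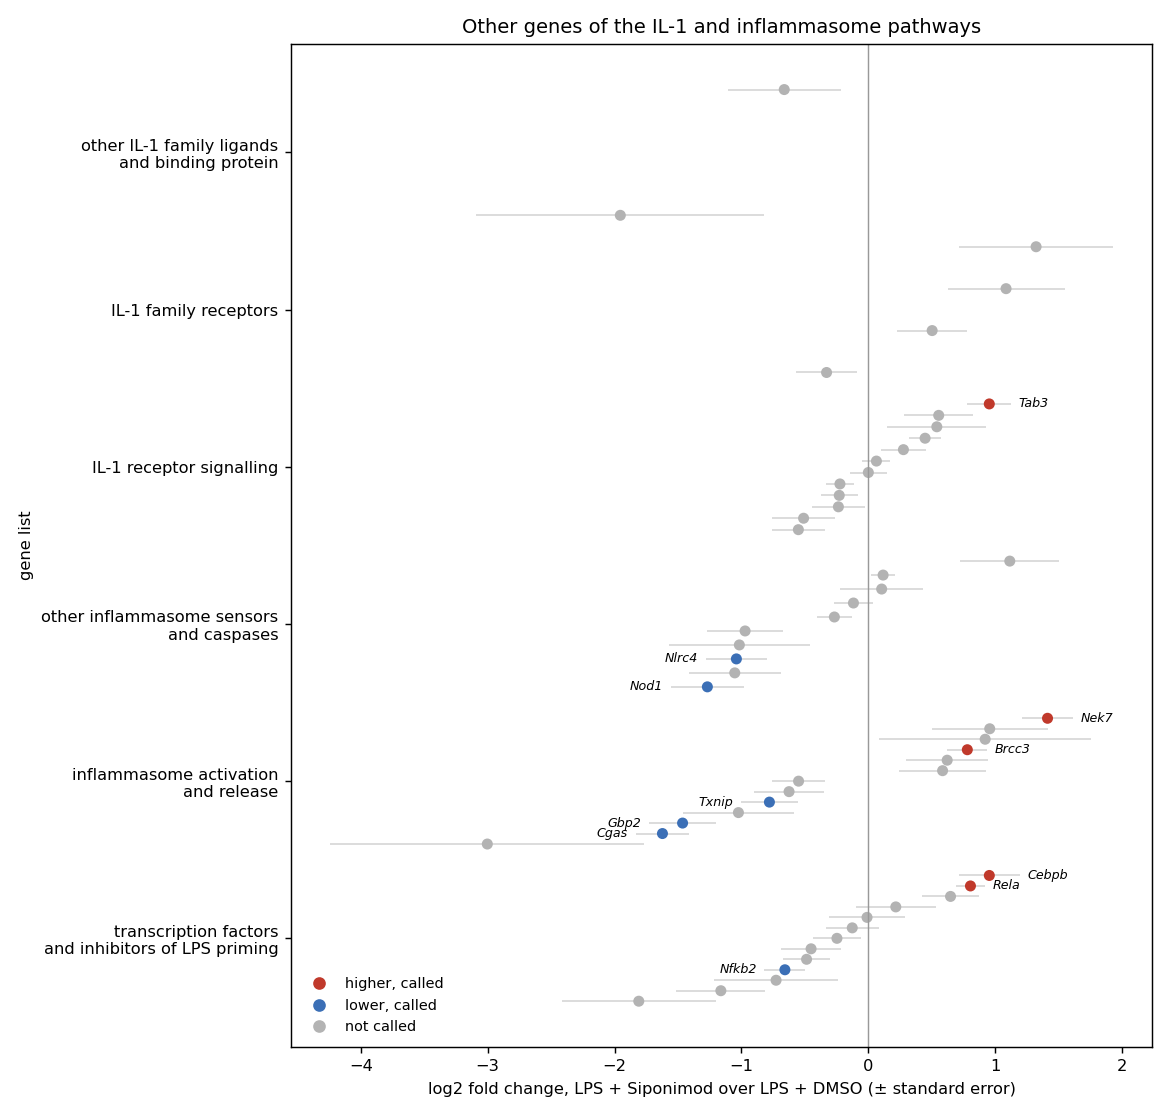
Log2 fold change, LPS + Siponimod over LPS + DMSO, with its standard error, of the tested genes in 6 lists around IL-1 and the inflammasome; red and blue points are genes called higher and lower, grey points were not called. Nek7 (1.41) lies farthest to the right among the called genes and Cgas (-1.62) farthest to the left.

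Markers of microglia and of cells that could accompany them were examined next to these values. All 10 microglia markers passed the filter on low counts, and Csf1r, Itgam or Cd68 had the most counts of the list, depending on the library. Their summed level was 7583, 6523 and 4549 CPM with LPS + DMSO and 3773, 4652 and 2997 CPM with LPS + Siponimod. Of the 10, 3 were called lower and 0 higher (median log2 FC -0.74), namely Aif1 (log2 FC -1.88, edgeR adjusted p = 0.0212), Itgam (log2 FC -0.87, edgeR adjusted p = 0.0112) and Cx3cr1 (log2 FC -3.65, edgeR adjusted p = 0.0392). Each of the 3 lost the call in 3 or 4 of the 6 fits with a library left out. The log2 FC of Cx3cr1, which had few counts, was -2.71 without LPS + DMSO replicate 2 and -5.01 without LPS + Siponimod replicate 2. With the replicate block 5 were called lower, Csf1r and P2ry12 in addition. Cd68 and Ptprc had log2 FCs of 0.00 and -0.02 and were not called (edgeR adjusted p = 0.996 and 0.96). In bulk RNA, fewer cells of a type and less of an RNA per cell cannot be told apart. The fall of inflammasome parts went along with that of Aif1, Itgam and Cx3cr1, and whether they are linked was not tested.

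Of 10 neutrophil markers, S100a9, Mpo, Elane, Ltf and Mmp8 had at most 1 count in any library. The list summed to 581, 453 and 1260 CPM with LPS + DMSO and to 309, 210 and 517 CPM with LPS + Siponimod, with Mmp9, which macrophages also make, ahead of the others in each library. Of 5 genes tested, 1 was called lower, S100a8 (log2 FC -3.57, edgeR adjusted p = 0.0219), and 3 were with the replicate block or by DESeq2, Csf3r and Cxcr2 in addition. Over all genes, DESeq2 called 1924 lower, against 1403 in the main test. S100a8 lost the call in 3 of the 6 fits with a library left out, those without LPS + DMSO replicates 1 and 2 and without LPS + Siponimod replicate 3 (edgeR adjusted p up to 0.0819). Csf3r, a receptor gene for a myeloid growth factor, had 235, 202 and 78.2 CPM against 23.0, 53.4 and 5.68 CPM, without overlap (log2 FC -2.65, edgeR adjusted p = 0.057, and with the replicate block log2 FC -3.01, adjusted p = 0.00853). Cxcr2 had a log2 FC of -4.22 (edgeR adjusted p = 0.0628), and of -4.82 with the replicate block (edgeR adjusted p = 0.00694). Without LPS + DMSO replicate 3, Csf3r and Cxcr2 were called lower (edgeR adjusted p = 0.0439 and 0.049). Of 6 lymphocyte markers, 5 had at most 3 counts in any library, and the sum was at most 2.75 CPM. Oligodendrocyte lineage markers summed to 5.34, 5.29 and 33.4 CPM against 11.4, 10.2 and 22.2 CPM, with Mog at the floor and Mbp ahead of the others in each library but LPS + DMSO replicate 3, where Olig1 was, and Pdgfra had 5, 4 and 284 counts against 1, 4 and 81. Neuron markers, with Tubb3 as the most abundant, summed to 1.65, 1.04 and 11.2 CPM against 6.39, 9.18 and 16.8 CPM. Astrocyte markers, with Slc1a3 as the most abundant, summed to 42.5, 21.0 and 21.7 CPM against 27.5, 26.8 and 57.7 CPM, and Gfap had 1, 2 and 88 counts against 0, 0 and 1. Fibroblast and endothelial markers, with Kdr at 0 and with Pecam1 as the most abundant but in LPS + Siponimod replicate 1, where Dcn was, summed to 41.9, 108 and 23.4 CPM against 15.5, 24.4 and 14.7 CPM. Pecam1 was not called over all libraries (log2 FC -2.39, edgeR adjusted p = 0.0785). It was called lower with the replicate block (log2 FC -2.40, edgeR adjusted p = 0.00966), where Dcn was called higher. Without LPS + DMSO replicate 3 Pecam1 was also called lower (edgeR adjusted p = 0.0471). The part of all these cell types in the levels of IL-1 family genes was not tested.

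The genes most like Il1rn, Il1b and Nlrp3 were sought among all 11977 genes tested, by the root-mean-square distance of log2 CPM over the 6 libraries, each gene being centred on its own mean. For Il1rn these were Grem1 (distance 0.364), St8sia4 (0.377), Kctd4 (0.41), RGD1559588 (0.442) and Prl6a1 (0.452). Prl6a1 had 2, 2 and 0 counts against 221, 45 and 48, so that its distance rests on few counts under LPS + DMSO. Grem1, which encodes a secreted antagonist of bone morphogenetic proteins, had 20, 25 and 3 counts against 502, 321 and 281. Like Il1rn, by whose levels it was picked, it was lowest in LPS + DMSO replicate 3 and highest in LPS + Siponimod replicate 1.

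For Il1b the 5 genes were Plek (0.208), Kif20b (0.223), Mastl (0.23), Cpt1a (0.236) and Ccl7 (0.243). Kif20b had 22, 14 and 60 counts against 16, 17 and 26. Mastl had 15, 19 and 55 against 13, 13 and 15, so that the distances of both rest on few counts. All 5 had their highest level in LPS + DMSO replicate 3, which follows from their choice by likeness to Il1b. Ccl7, a chemokine gene, had 36877, 24208 and 100393 counts against 32416, 28122 and 37734. For Nlrp3 the nearest genes were Tpbgl (0.165), Fam72a (0.165), Pde1b (0.166), a gene listed by an Ensembl identifier alone (0.169) and RT1-N3 (0.178), a class I histocompatibility gene whose family members resemble each other, so that its counts are uncertain. All 5 were lower with siponimod, which follows from their choice by likeness to Nlrp3, so that their calls are not read as results. Among the members themselves, the shortest distance was that between Casp1 and Il18 (0.313), followed by Pycard and Gsdmd (0.604) and Nlrp3 and Il18 (0.609), while Il1rn lay at least 2.05 from each of the others. These distances describe 6 libraries, which also share their conditions and their pairs, and carry no test.

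**Figure D5:**
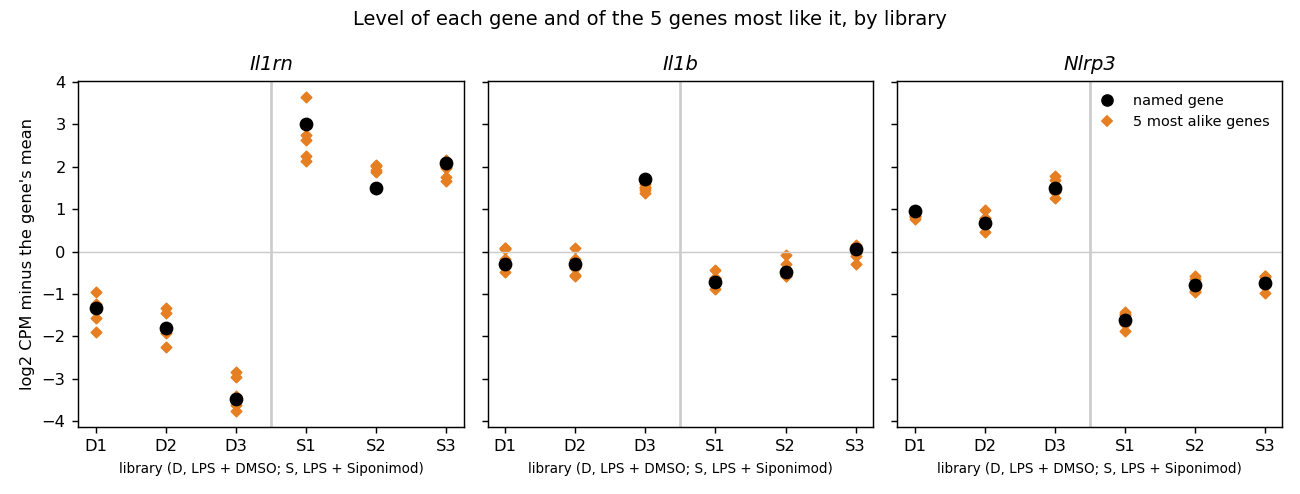
Log2 CPM of Il1rn, Il1b and Nlrp3 minus the mean of each gene over the 6 libraries (black), with the 5 genes nearest to each (orange diamonds); D1 to D3 are the LPS + DMSO libraries and S1 to S3 the LPS + Siponimod libraries. The Il1b group peaks in D3, the Il1rn group is lowest in D3, and the Nlrp3 group is lower in all 3 LPS + Siponimod libraries. Each group was picked by likeness to its named gene, which fixes its course.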

How the data were processed

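The deposited values are total read counts per gene, 1 table per library and without normalization. Per the study's methods, the authors made them from mRNA captured out of 150 ng of total RNA with the CLC Genomics Workbench, where trimmed single-end reads were mapped to mRatBN7.2, a rat assembly, after conversion with bcl2fastq (version 2.20.0.422, from the submitters' processing notes). The treatment of reads that match several genes and of strand is not given in the sources used here. A nameless row with 0 counts in 1 library was dropped.

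The tests used edgeR (version 4.0.16) under R (version 4.3.3). Genes were kept by filterByExpr (minimum count 10, minimum total 15), libraries were scaled by TMM (factors from 0.939 to 1.056), and all 11977 remaining genes entered the quasi-likelihood test (glmQLFit, glmQLFTest) of condition, without covariates. The Benjamini-Hochberg adjustment covered all of them. Called genes had adjusted p-values no greater than 0.05 and changed 1.5-fold or more. Standard errors are the log2 FC divided by the square root of the F statistic. Within pairs, log2 CPM (prior count 2) was subtracted. Ratios of counts were compared by exact permutation over libraries with scipy (version 1.17.1). Alternatives were RLE, DESeq2 (version 1.42.0), limma-voom (limma version 3.58.1), the likelihood ratio test, no filter, a mean of at least 1 CPM, the replicate number as a block, and each library left out. The fit without both libraries numbered 3 was added after the data were seen. The procedure was tested on simulated counts.

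The members and the wider lists were chosen with earlier results of these data known. Named are all 10 members, Il1r1, Il1rap, Myd88, Nek7, Txnip, P2rx7 and Panx1, every called gene of the wider lists, and the 5 genes most like each of Il1rn, Il1b and Nlrp3. Other genes were named after their values were seen. The main test had no pairs. Same-numbered libraries were regarded as pairs in the fit with the block and in the differences within pairs, because the deviations from the group means correlated over genes at 0.420, 0.545 and 0.611 within pairs, and between -0.534 and 0.086 across numbers. The single result of 1 microglia marker is not reported here.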

Additional observations from a re-analysis of the deposited data

How the results depend on the processing

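The number of genes called ranged from 651 to 3713 when libraries were left out, against 3036 with all of them, and was 651 without LPS + DMSO replicate 2, 783 without LPS + Siponimod replicate 1, 1035 without LPS + Siponimod replicate 3 and 1743 without LPS + DMSO replicate 1. The number of members called higher then lay between 0 and 2 and that of members called lower between 1 and 4. DESeq2 and the likelihood ratio test each called 5 members lower, Il18 and Gsdmd in addition. Over all genes they called 1924 and 1738 lower, against 1403 in the main test. With limma-voom Pycard was not called. The median log2 FC of cytokines and antagonist ranged from -1.09 to 1.43 with libraries left out, and that of inflammasome parts from -2.00 to -1.34. With limma-voom the median of cytokines and antagonist was 0.22. With the replicate block the medians were 0.31 and -1.56, 1 member was called higher and 4 were called lower, and 4074 genes were called in all. The block changed no other call among the members. The mean log2 ratio of Il1rn to Il1b differed by 3.84 to 5.93, and that of Il1rn to Il1a by 0.89 to 4.49. Within pairs, an exact sign-flip test gave p = 0.25 for both ratios, the smallest that 3 pairs can give. The sign of Il1a was the opposite with limma-voom (1.19), with the replicate block (1.36) and in the range from -1.07 to 2.90 with libraries left out. P2rx7 ranged from -0.33 to 1.37 and Plek from -1.0 to 0.26. Over 46 named genes and all alternatives, 544 of 642 values kept direction and side of the threshold, 80 lost the call, 11 gained it and 7 changed sign. Without both libraries numbered 3, 2 members were called higher and 4 lower, where 1335 and 983 of all genes tested were. With 3 libraries against 3, an exact test of a single gene cannot go below p = 0.10.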

Other observations

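Among the marker genes of other cells, 3 were called higher with siponimod, of which Snap25 was called in all 6 fits with a library left out and Dcn and Mbp in 3 each. Snap25, which encodes a synaptic SNARE protein, had 0, 1 and 1 counts with LPS + DMSO and 94, 153 and 81 counts with LPS + Siponimod (edgeR adjusted p = 0.00539). Dcn, which encodes the matrix proteoglycan decorin, had 3, 0 and 4 counts against 456, 49 and 178 (edgeR adjusted p = 0.0155), and Mbp had 149, 161 and 84 counts against 470, 397 and 652 (log2 FC 1.74, edgeR adjusted p = 0.0172). Tubb3, a neuronal tubulin gene, was not called over all libraries (log2 FC 1.28, edgeR adjusted p = 0.251), but was called higher with the replicate block (log2 FC 1.59, edgeR adjusted p = 0.0316) and without LPS + DMSO replicate 3 (log2 FC 2.51, edgeR adjusted p = 0.0277). The levels of Snap25, Dcn and Mbp were not highest in LPS + DMSO replicate 3, in contrast to those of Olig1, Pdgfra, Map2 and Gfap.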
